A study of Mus musculus with 2 samples.

Results

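The genes described here store, release and pump calcium inside the cell. They are 10 genes chosen by name from 21542 in an RNA sequencing table: the pumps Atp2a2, Atp2a3 and Atp2b1, the release channels Itpr1, Itpr2, Itpr3 and Ryr2, the store-operated entry genes Stim1 and Orai1, and the mitochondrial uniporter gene Mcu. The cells were MIN6, an insulin-secreting line from a mouse beta cell tumour (strain C57BL/6 in the labels). One library came from cells transfected with a control vector. The other came from cells given a vector that expresses GR, the glucocorticoid receptor encoded by Nr3c1. Both grew in DMEM with 25 mM glucose and 15% serum and received 4 ug of plasmid with 4.8 ul of Lipofectamine 2000 in a 3.5 cm dish. The share of cells that took up plasmid, the species of the GR cDNA, the time to harvest and any added steroid were not given in the sources used here.

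A beta cell keeps free calcium low in the cytosol and high in the endoplasmic reticulum (ER). SERCA pumps fill the ER, PMCA pumps expel calcium across the plasma membrane, and inositol trisphosphate (IP3) receptors and ryanodine receptors release the store. When the store runs down, the ER protein STIM1 opens ORAI channels in the plasma membrane, and the uniporter carries calcium into mitochondria. Calcium entry triggers insulin granule release, and the ER store shapes the size and rhythm of that signal.

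The libraries held 18537326 reads over genes (control vector) and 18525668 (GR vector). Nr3c1 had 2645 and 5202 reads, a fold of 1.97 (95% interval 1.88 to 2.07). Most defining beta cell genes were abundant, with a summed level of 37085 and 35016 RPKM (reads scaled to exon length in kilobases and to the library total) over 10 markers. Ins2 (16775 and 15348) and Iapp (15718 and 15178) gave most of that sum. Ucn3, a marker on the same list, stood at only 5.80 and 5.30 RPKM. Muscle markers, which matter because Ryr2 and Atp2a1 are muscle genes, summed to 0.671 and 0.571 RPKM, and leukocyte markers to 1.35 and 1.17. Neuronal genes, several of which beta cells share, summed to 80.4 and 74.4 RPKM. Grin1 (5391 and 5191 reads), Tubb3 (1232 and 1065) and Snap25 (1809 and 1808) gave most of that sum. The other neuronal markers were sparse: Rbfox3 had 16 reads in each library, Slc17a7 14 and 10, and Gad1 20 and 22. Markers of other islet cells summed to 27.2 and 32.2 RPKM, of exocrine cells to 0.164 and 0.304, and of fibroblasts and endothelium to 0.534 and 0.607. Gcg gave 19.4 and 22.5 of the islet sum. The exocrine sum is Cela1 alone, the 1 of 7 exocrine markers among the genes given. Every difference below compares 1 library with 1 library and has no replicate check. In bulk RNA, fewer cells that use a gene and less RNA per cell cannot be told apart.

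Transcripts of 2 ER pumps, Atp2a3 and Atp2a2, far exceeded those of the other 8 genes. All 10 genes together held 90780 reads in the control library against 90558 in the GR library, 0.490% and 0.489% of each library, at a fold of 1.00 (95% interval 0.991 to 1.01). Atp2a3 and Atp2a2 held 79820 and 78852 of these reads, so the flat total mainly describes those 2 pumps. Within it, Itpr1 and Atp2b1 were higher in the GR library by 1.15-fold and 1.11-fold, Atp2a3 was 0.962-fold as high, and Atp2a2 differed by 1.03-fold. Stim1, Orai1 and Mcu had folds between 0.981 and 1.08, with intervals that include 1.

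A pair of rules was used to read these folds. The first is a fold of 1.2 or more in either direction among 11070 well-read genes (100 reads or more on average over both libraries), of which 5.04% passed. The second, called the library test, is an exact binomial test of a gene's reads in the 2 libraries with Benjamini-Hochberg adjustment over all genes. It covers counting error only and compares these libraries, not the vectors as treatments. Among the same 11070 genes, 4.55% passed it at an adjusted p under 0.05. All 10 calcium genes were well read. By the fold rule 2 of them were higher (background 2.68%) and 0 lower (2.36%), and by the library test 3 were higher (2.68%) and 1 lower (1.87%). With the GC trend described below removed, 2 of the 10 passed the library test, beside 1.65% of well-read genes. Both rules depend on depth. The fold rule picked Ryr2 and Itpr2, which have under 200 reads on average, a range in which 24.0% of genes passed, and neither passed it with the trend on gene length removed. The library test picked all 3 of the genes with a mean of 5000 reads or more, where 22.5% of all genes passed. It also picked Itpr1, in the range of 1000 to 5000 reads, where 5.85% passed. In the authors' deposited table the adjusted p was 1 for all 10, where 0.0186% of all genes passed 0.05. That table's unadjusted p ran from 0.520 for Ryr2 to 1 for Orai1. Nr3c1 did not pass there either (log2 fold 0.980, unadjusted p 0.0183, exact test with a preset dispersion). A gene that this deposited test did not call therefore cannot be taken as unchanged.

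**Figure D1:**
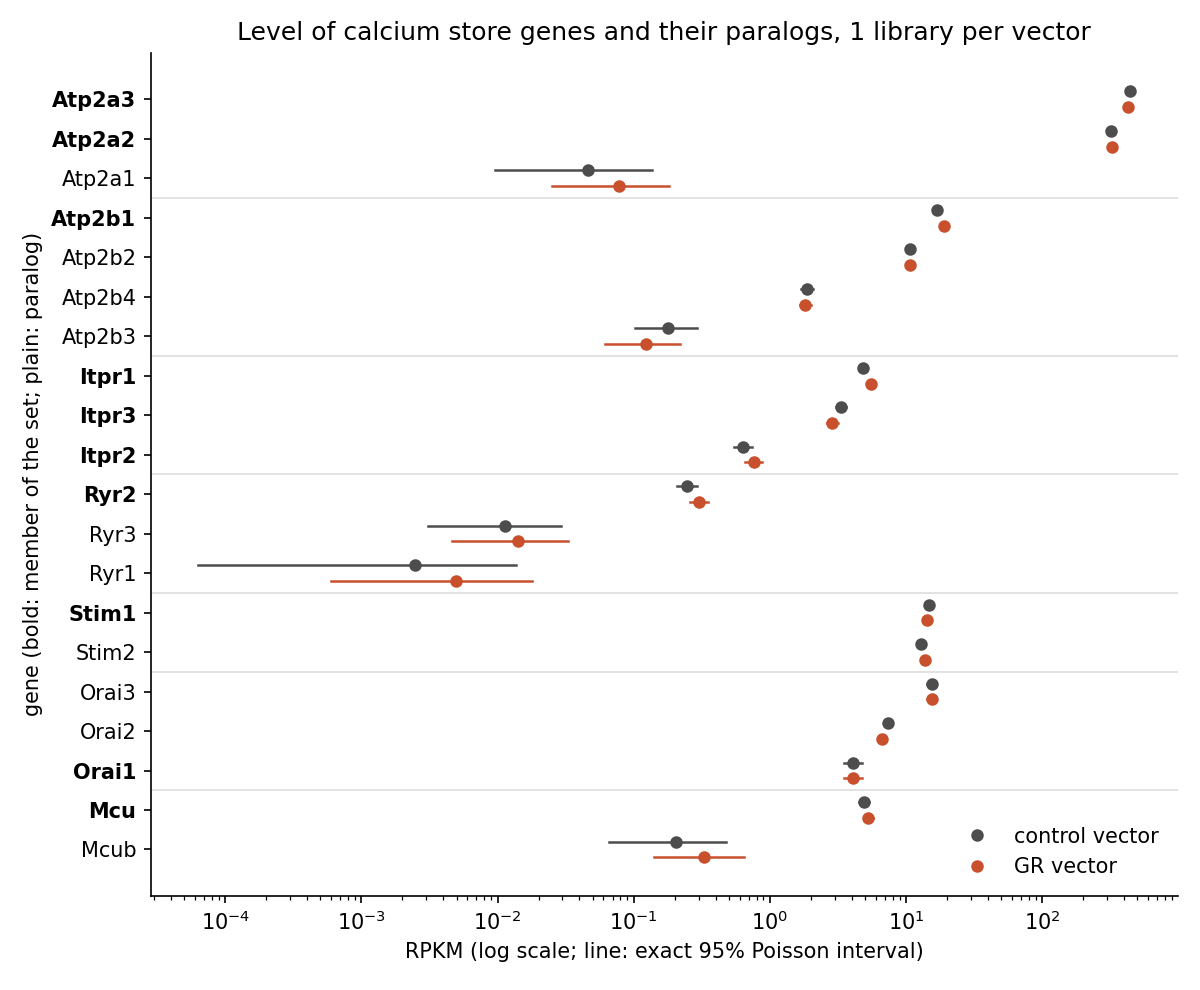
Level of each of the 10 genes (bold) and of their paralogs (plain) in RPKM on a log axis, with 1 point per library (grey, control vector; orange, GR vector) and exact 95% Poisson intervals as lines. Atp2a3 and Atp2a2 stand between 321 and 446 RPKM, Atp2b1 and Stim1 lie between 14 and 19, and Ryr2 is the lowest of the 10 at 0.247 and 0.304.

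Atp2a3 (ENSMUSG00000020788, chromosome 11, 72961169 to 72993044, plus strand) encodes SERCA3, a pump found in beta cells, blood cells and some epithelia. It had 43677 reads in the control library against 41900 in the GR library, 446 and 428 RPKM. This placed it 29th and 31st of all genes by RPKM. For scale, the beta cell transcription factor gene Mafa stood at 336 RPKM in the control library. The Atp2a3 fold was 0.962 (95% interval 0.949 to 0.975), and the library test called it lower (adjusted p 5.79e-06, exact binomial test). GC-rich transcripts as a whole were lower in the GR library: the 10% of well-read genes with the highest GC content had a median log2 fold of -0.05, and the 10% with the lowest had 0.07. The Atp2a3 transcripts have 57.1% GC, and with the GC trend removed the fold was 0.995 (0.982 to 1.01), which no longer passed.

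Atp2a2 (ENSMUSG00000029467, chromosome 5, 122453513 to 122502225, minus strand) encodes SERCA2, the housekeeping ER pump that is also the main pump of heart muscle. Its reads were 36143 and 36952, or 321 and 328 RPKM, the 52nd and 49th highest of all genes. The fold of 1.03 (1.01 to 1.04) passed the library test narrowly (adjusted p 0.0357, exact binomial test) and did not with the libraries scaled by total reads (adjusted p 0.0695), by median-of-ratios size factors (0.0822) or with the GC trend removed (fold 1.02, adjusted p 0.392). The ER pumps thus differed in opposite directions by small amounts, and their summed reads went from 79820 to 78852, a fold of 0.991 (0.981 to 1.00). Per length, Atp2a3 exceeded Atp2a2 by 1.39 times (1.37 to 1.41) in the control library and by 1.31 times (1.29 to 1.32) in the GR library. The second ratio was 0.938 of the first as measured and 0.979 of it with the GC trend removed. The skeletal muscle pump Atp2a1 had 3 and 5 reads, too few to compare. Some 5.42% of the 31-base words of Atp2a2 occur in another annotated gene, the most among the 10 genes.

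The deposited data concern a DNA-binding receptor, so the start regions of the genes were searched for the letters of its binding site. RefSeq start windows (GRCm38.p6, 250 bases before to 50 after a start) were matched for 8 of the 10 genes, in 9 windows. Atp2a2 and Itpr1 had no window. The GR half-site AGAACA, on either strand, was found in 0 of the 9 windows and in 19% of all 32851 windows. In so few windows, a count of 0 does not differ clearly from that share. The full site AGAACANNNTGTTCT was in 0 of the 9 and in 0.00913% of all. The GC box GGGCGG, the site of Sp1-type factors, was in 8 of the 9 and in 35.7% of all, and the CCAAT box, whose letters are CCAAT, in 3 of the 9 and in 37.4%. These are letter matches in a short window, and receptor sites farther away were not searched. The 250 bases before the start are shown for the most abundant gene and for the genes with the highest and the lowest fold, with GC boxes of either strand in capitals.
Atp2a3, chr11:72960919-72961168, plus strand: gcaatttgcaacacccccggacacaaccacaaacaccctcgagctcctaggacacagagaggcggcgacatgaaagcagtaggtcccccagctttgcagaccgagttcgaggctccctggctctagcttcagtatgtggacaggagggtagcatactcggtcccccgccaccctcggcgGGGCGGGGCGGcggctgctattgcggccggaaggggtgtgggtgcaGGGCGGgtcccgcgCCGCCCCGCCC
Itpr3, chr17:27057054-27057303, plus strand: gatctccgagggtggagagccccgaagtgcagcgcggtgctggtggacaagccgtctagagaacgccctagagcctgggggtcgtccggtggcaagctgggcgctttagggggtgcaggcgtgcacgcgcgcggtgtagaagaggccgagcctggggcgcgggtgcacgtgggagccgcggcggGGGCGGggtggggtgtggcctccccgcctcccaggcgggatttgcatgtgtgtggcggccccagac
Ryr2, chr13:12106946-12107195, minus strand: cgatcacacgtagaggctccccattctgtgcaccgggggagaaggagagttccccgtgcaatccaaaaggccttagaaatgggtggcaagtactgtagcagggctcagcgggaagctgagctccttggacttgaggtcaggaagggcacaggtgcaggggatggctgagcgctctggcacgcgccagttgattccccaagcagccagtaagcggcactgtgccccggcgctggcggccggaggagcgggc
The Atp2a3 stretch holds 5 GC boxes, some of them overlapping, and 20 CG pairs. That of Itpr3 holds 1 GC box and 25 CG pairs, and that of Ryr2 0 GC boxes and 14 CG pairs. The stretch of Mcu, not shown, also holds 0 GC boxes. The count of 8 of 9 windows given above takes in the 50 bases after the start as well. Over these 250 bases their GC content is 66.8%, 72.0% and 63.2%. The median of all windows, which also take in the 50 bases after the start, is lower at 52.7%. The stretches of all 9 windows ran from 60.8% GC (Mcu) to 80.8% (Atp2b1). The part of base composition in the motif counts was not tested.

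**Figure D2:**
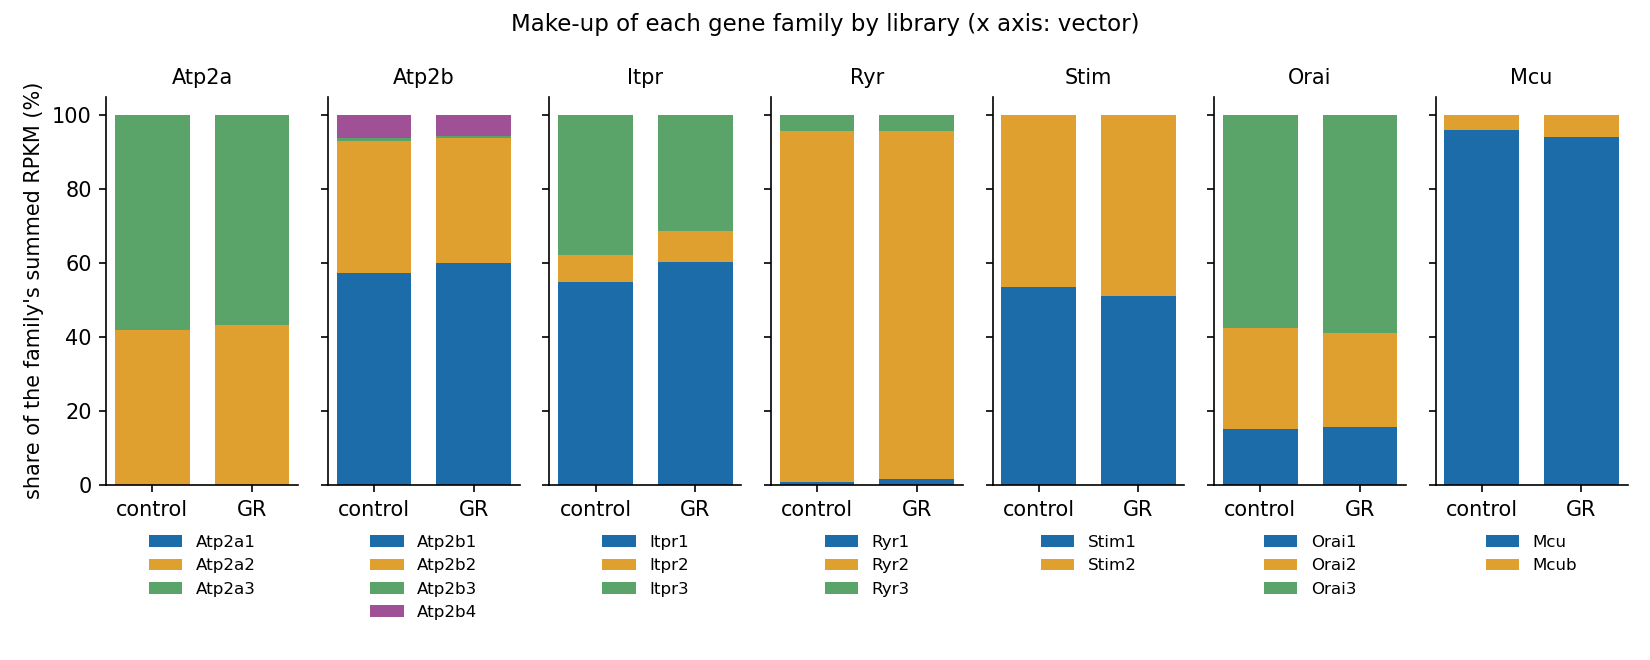
Share of each gene family's summed RPKM held by each paralog, as stacked bars that add to 100%, with the control vector on the left and the GR vector on the right of each panel. The leading paralog is the same in both libraries in all 7 panels, and the widest shift is in the IP3 receptors, where Itpr3 goes from 37.9% to 31.4%.

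At the plasma membrane, Atp2b1 carried most of the calcium pump transcripts and was higher in the GR library. Atp2b1 (ENSMUSG00000019943, chromosome 10, 98914406 to 99026143, plus strand) encodes PMCA1, the widely expressed calcium pump of the plasma membrane. It had 4804 reads in the control library against 5340 in the GR library, or 17.0 and 18.9 RPKM, with intervals that do not overlap. The fold was 1.11 (95% interval 1.07 to 1.16; adjusted p 1.52e-05, exact binomial test over all genes). Its transcripts are AT-rich, with 43.6% GC. With the GC trend removed the fold was 1.07 (1.03 to 1.12), still past the library test (adjusted p 0.0393). Of all well-read genes, 16.6% lay at least as far from 1. That share spans all depths: the median absolute log2 fold was 0.145 at 100 to 200 reads and 0.042 from 5000 reads on, the range of Atp2b1.

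The paralog Atp2b2, a pump best known from neurons and hair cells, had 2497 and 2507 reads (fold 1.01, 0.952 to 1.07). Atp2b4 had 427 and 415 reads, and Atp2b3 16 and 11. Per length, Atp2b1 held 57.2% of the family in the control library against 59.9% in the GR library, and Atp2b2 35.9% and 33.9%. Bsg, which encodes basigin, a partner subunit of these pumps, was the most read gene of the export list (11879 and 11950 reads, fold 1.01). Of the 8 well-read export genes, Atp2b1 was the 1 past the library test (4.55% of all well-read genes passed), and 0 passed 1.2-fold (5.04%). For 7 of them other than Atp2b1 the median log2 fold was 0.0042, as it was over all well-read genes.

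Of the IP3 receptor genes, Itpr1 was higher in the GR library, and Itpr2 and Itpr3 did not pass the library test. Itpr1 (ENSMUSG00000030102, chromosome 6, 108213096 to 108551109, plus strand), the subtype best known from neurons, had 1649 reads in the control library against 1885 in the GR library, 4.86 and 5.55 RPKM. Its fold of 1.15 (95% interval 1.07 to 1.23) passed the library test (adjusted p 0.00570, exact binomial test), also with the GC trend removed (fold 1.14, adjusted p 0.0216). Of all well-read genes, 10.2% lay as far from 1. That share spans all depths: the median absolute log2 fold was 0.145 at 100 to 200 reads and 0.053 at 1000 to 5000, the range of Itpr1.

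Itpr3 (ENSMUSG00000042644, chromosome 17, 27057304 to 27122223, plus strand), a subtype prominent in epithelial and endocrine cells, had 559 and 483 reads, 3.34 and 2.89 RPKM. Its fold of 0.867 (0.766 to 0.981) was the lowest of the 10, and it missed the library test (adjusted p 0.273). Its interval reached past 1 once the GC trend was removed (fold 0.897, 0.793 to 1.02). Itpr2 (ENSMUSG00000030287, chromosome 6, 146108299 to 146502223, minus strand), the subtype with the highest IP3 affinity, was sparse, with 174 and 209 reads, 0.634 and 0.762 RPKM. Its fold of 1.205 (0.980 to 1.48) passed the fold rule, with an interval that includes 1, and it was 1.17 with the length trend removed, under the limit.

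The leading IP3 receptor genes lay on opposite sides of 1, so their ratio differs more than either fold by construction. Itpr1 stood at 1.45 times the RPKM of Itpr3 in the control library (1.32 to 1.60) and at 1.92 times in the GR library (1.74 to 2.13). With the longest transcript as length the same ratios were 2.69 and 3.55. The ratio was 1.32 times higher in the GR library, or 1.27 times with the GC trend removed. The transcripts differ in composition, with 48.8% GC for Itpr1 and 57.5% for Itpr3. This pair was chosen after its values were seen, so the difference is a description only. By share of the family, Itpr1 went from 55.0% to 60.3%, Itpr3 from 37.9% to 31.4% and Itpr2 from 7.18% to 8.28%. Annotated transcripts of the opposite strand overlap 289 exon bases of Itpr1 and 233 of Itpr3, and strand handling of the counts was not given in the sources used here.

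Ryr2 (ENSMUSG00000021313, chromosome 13, 11553102 to 12106945, minus strand), the cardiac ryanodine receptor that opens when cytosolic calcium rises, was the lowest of the 10 genes. It had 132 reads in the control library against 162 in the GR library, 0.247 and 0.304 RPKM, spread over 28790 bases of exon. Its fold was the highest of the 10, 1.23 (95% interval 0.972 to 1.56), past the fold rule but not the library test (adjusted p 0.506), and 1.17 with the length trend removed, under the fold limit. A difference of this size was not detectable beyond counting error at this depth. Ryr2 was nevertheless nearly the whole ryanodine receptor pool, at 94.7% and 94.1% of the family's RPKM. Ryr3 had 4 and 5 reads and Ryr1 1 and 2. Itpr1 stood 19.6 times (16.4 to 23.6) and 18.3 times (15.6 to 21.6) above Ryr2.

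The 4 release channels together had 2514 and 2739 reads, a fold of 1.09 (1.03 to 1.15). This sum mainly restates Itpr1 (1649 and 1885 reads). Of the other release channels, Itpr2 (174 and 209) and Ryr2 (132 and 162) were higher and Itpr3 (559 and 483) was lower. Among 16 well-read release channels and partner genes, 8 lay above and 8 below a log2 fold of 0. By the fold rule 3 were higher and 2 lower, 31.2% of the list beside 5.04% of all well-read genes. These 5 were Ryr2, Itpr2, Fkbp1b, Tpcn2 and Jph4, all with a mean of 100 to 200 reads, where 24.0% of genes passed, and the last 3 are named here after their values were seen. Fkbp1b, which encodes the ryanodine receptor stabiliser FKBP12.6, had 172 and 213 reads (fold 1.24, 1.01 to 1.53). Tpcn2, which encodes a lysosomal cation channel, had 177 and 131 reads (fold 0.742, 0.588 to 0.936), and Jph4, a junctophilin gene, 135 and 111. None of the 5 passed the library test. Ahcyl1, whose product IRBIT holds IP3 receptors back, had 11904 and 12557 reads and passed the library test (fold 1.06, 1.03 to 1.08), though not with the GC trend removed (adjusted p 0.360). Calm3, one of the calmodulin genes, had 10517 and 10365 reads (fold 0.988).

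**Figure D3:**
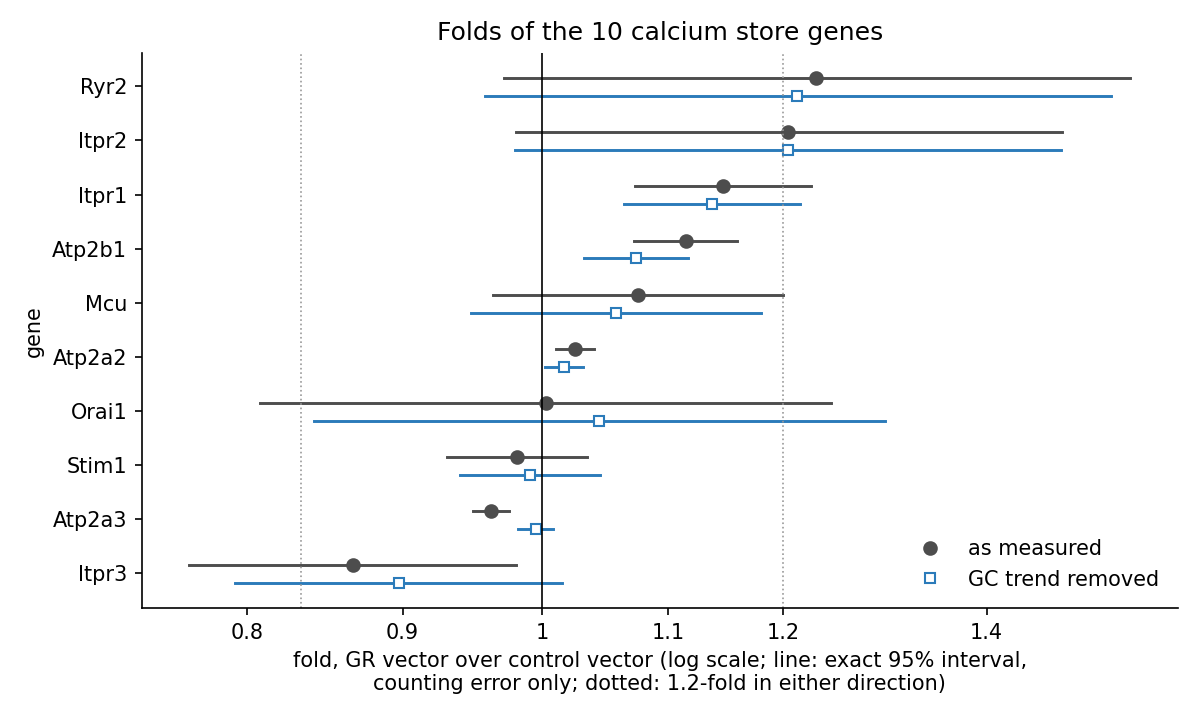
Fold (GR library over control library) for each of the 10 genes on a log axis, with exact 95% intervals for counting error as lines, as measured (grey circles) and with the GC trend removed (blue squares). Itpr1 and Atp2b1 lie above 1 on both scales, Atp2a3 moves from 0.962 to 0.995, and the sparse Ryr2, Itpr2 and Orai1 have the widest intervals.

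Genes of store-operated entry differed little between the libraries. Stim1 (ENSMUSG00000030987, chromosome 7, 102267806 to 102437319, plus strand), the ER calcium sensor, had 2834 reads in the control library against 2773 in the GR library, 14.7 and 14.4 RPKM. Its fold of 0.981 (95% interval 0.931 to 1.03) includes 1. Orai1 (ENSMUSG00000049686, chromosome 5, 123015074 to 123030456, plus strand), the pore of the channel that STIM1 opens, had 174 reads in each library, 4.09 RPKM. Its fold was 1.00, with an interval of 0.808 to 1.24 that allows a difference of about 1.2-fold either way.

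Orai1 was the least abundant of its family. Per length, Orai3 held 57.5% of the family in the control library against 59.0% in the GR library, Orai2 27.3% and 25.4%, and Orai1 15.2% and 15.6%. Orai3 had 616 and 615 reads, and Orai2 829 and 752 (fold 0.910, 0.823 to 1.01). Orai3 stood 3.79 times above Orai1 in either library. Stim2, the sensor that responds to smaller losses of ER calcium, had 1221 and 1313 reads (fold 1.08, 0.997 to 1.17). It was close to Stim1 per length, at 0.870 times its RPKM (0.813 to 0.931) in the control library and 0.957 times (0.895 to 1.02) in the GR library. That closeness rests on the long exon union of Stim1, 10371 bases against 4362 for its longest transcript. Of 9 well-read genes of this list, 0 passed either rule, beside 5.04% (fold rule) and 4.55% (library test) of all well-read genes. In so short a list, a count of 0 does not differ clearly from those shares. The log2 folds of these 9 genes ran from -0.14 to 0.11. Esyt1, which tethers the ER to the plasma membrane, had 14284 and 13749 reads (fold 0.965), and Saraf, which inactivates the channel, 4068 and 4082 (fold 1.01).

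Mcu (ENSMUSG00000009647, chromosome 10, 59446984 to 59616692, minus strand), the pore of the mitochondrial calcium uniporter, had 634 reads in the control library against 680 in the GR library, 4.93 and 5.29 RPKM. The fold was 1.08 (95% interval 0.964 to 1.2005). Its dominant negative paralog Mcub had 5 and 8 reads, and Mcu made up 96.0% and 94.2% of the pair. The small subunit gene Smdt1, which encodes EMRE and links the pore to its gatekeepers, was lower in the GR library, with 1819 and 1582 reads (fold 0.872, 0.815 to 0.934; adjusted p 0.00715, exact binomial test). Vdac3, a channel of the outer mitochondrial membrane, was higher, with 1889 and 2102 reads (fold 1.12, 1.05 to 1.19; adjusted p 0.0305, exact binomial test). With the GC trend removed the adjusted p was 0.113 for Smdt1 and 0.476 for Vdac3. Per length, Smdt1 stood 13.5 times above Mcu in the control library and 10.9 times above it in the GR library. The second ratio was 0.811 of the first, or 0.849 with the GC trend removed, a description that follows from the choice of Smdt1 by its difference. Of 12 well-read mitochondrial genes 7 lay above and 5 below 0. The most read were Ghitm, an inner membrane protein gene (8272 and 8363 reads, fold 1.01), and Vdac1 (6964 and 6843, fold 0.985).

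By RPKM in the control library, the order of the 10 genes was Atp2a3, Atp2a2, Atp2b1, Stim1, Mcu, Itpr1, Orai1, Itpr3, Itpr2 and Ryr2. Atp2a2 stood 18.8 times above Atp2b1 there and 17.3 times in the GR library, or 9.45 and 8.70 times with the longest transcript as length. Mcu, Itpr1 and Orai1 had overlapping counting intervals, as did Orai1 and Itpr3, so these levels are close. Overlap alone does not show that levels are equal, and these pairs were not compared directly. In the GR library Itpr1 came before Mcu, also with overlapping intervals, and the other places were the same. The first stood 1804 times above the last in the control library and 1410 times in the GR library. Length is uncertain too: with the longest transcript in place of the exon union, Atp2b1 stood at 36.3 RPKM, Stim1 at 35.0, Mcu at 11.9 and Itpr1 at 9.01.

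**Figure D4:**
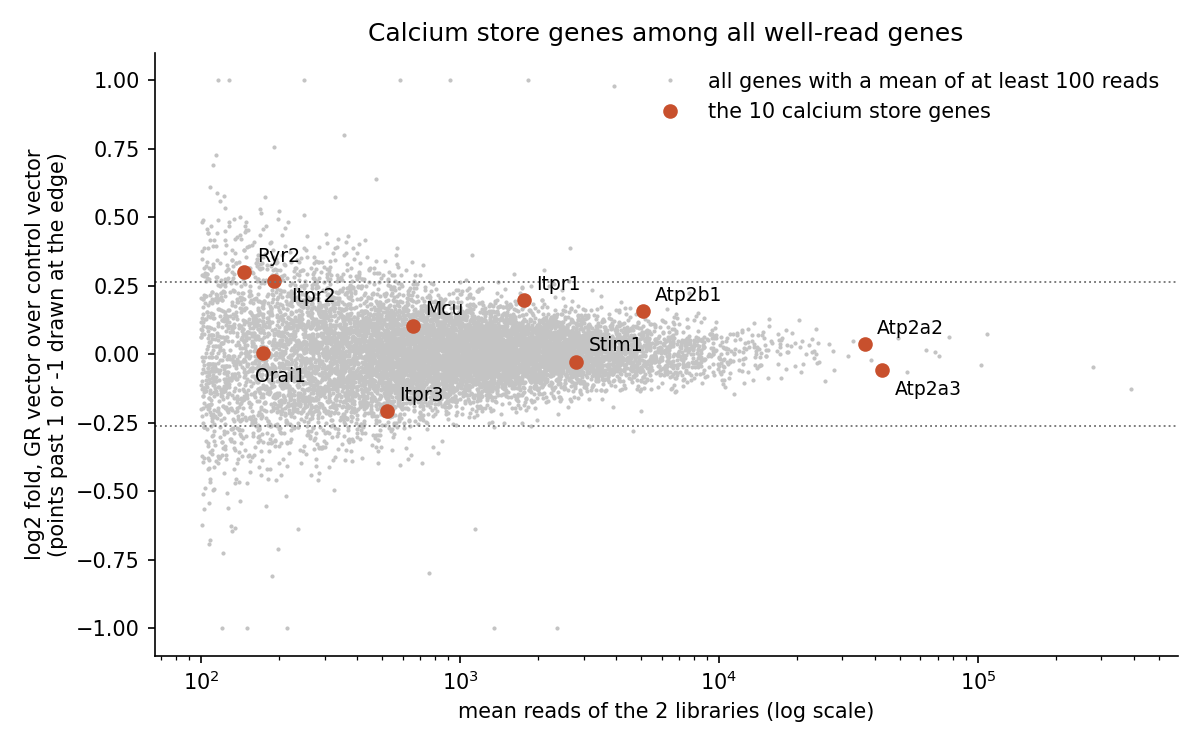
Log2 fold (GR library over control library) against mean reads (log axis) for 11070 well-read genes (grey) and for the 10 calcium store genes (orange), with dotted lines at 1.2-fold in either direction. Ryr2 and Itpr2 lie past the upper line where the grey cloud is wide, and Itpr1 and Atp2b1 lie inside the lines at its upper edge.

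Over the 10 genes the median log2 fold was 0.07, with 7 above 0 and 3 below (Itpr3, Atp2a3 and Stim1). The 7 include Orai1, which had equal reads and a log2 fold of 0.0042. Over all well-read genes the median was 0.0042, and 51.3% lay above 0. The median of the 10 was again 0.07 with the GC trend removed. Long genes were on the whole somewhat higher in the GR library: the 10% with the longest exon unions had a median log2 fold of 0.04 and 67.7% above 0. Atp2b1, Itpr1, Itpr2, Ryr2 and Stim1 fall in that group, which starts at 10293 bases. With the length trend removed, the folds of the first 4 were 1.08, 1.11, 1.17 and 1.17, which left 0 of the 10 past the fold rule. The part of transcript length in these differences was not tested further.

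Of 11 well-read genes for calcium buffers and chaperones of the ER lumen, 2 were higher in the library test. That is 18.2%, beside 2.68% of all well-read genes. These 2, Pdia3 and Hsp90b1, have a mean above 5000 reads, a range in which 22.5% of all genes passed the library test. Of the 11, 8 lay above 0 and 3 below, with a median log2 fold of 0.06, or 0.01 with the GC trend removed. Pdia3, a disulfide isomerase that works with calreticulin, had 6434 and 6929 reads (fold 1.08, 95% interval 1.04 to 1.12) and Hsp90b1, the ER chaperone GRP94, 9062 and 9503 (fold 1.05, 1.02 to 1.08). Both were higher in the library test, with adjusted p of 0.00132 and 0.0323 by the exact binomial test, and neither with the GC trend removed (0.0526 and 0.933). Hspa5, the chaperone BiP, had 9362 and 9740 reads and a fold of 1.04. By the fold rule 1 gene was higher, Rcn1 (reticulocalbin 1), named after its values were seen, with 128 and 175 reads (fold 1.37, 1.09 to 1.74). Its mean lies in the range of 100 to 200 reads where 24.0% of genes passed the fold rule. It did not pass the library test (adjusted p 0.147, exact binomial test).

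All 14 genes of ER leak and of ER contact sites were well read, with log2 folds between -0.09 and 0.07. Of these, 0 passed either rule, beside 5.04% (fold rule) and 4.55% (library test) of all well-read genes. Hspa9, the mitochondrial chaperone that bridges IP3 receptors to VDAC, had 15857 and 16283 reads (fold 1.03), and Tmbim6, a calcium leak protein gene, 11135 and 10877 (fold 0.980). Among 13 well-read genes that make or remove IP3, 5 lay above and 8 below 0, and 0 passed the library test. The 1 past the fold rule (7.69% of the list) was Itpkc (134 and 107 reads), named after its values were seen. Itpkc has a mean of 120.5 reads, in the range of 100 to 200 where 24.0% of genes passed. Itpkb, an IP3 kinase gene, had 14459 and 14305 reads (fold 0.992) and Plcg1, a phospholipase C gene, 5015 and 4809 (fold 0.962). Over the 75 well-read pathway genes that are not among the 10, 5 passed the library test (4 higher, 1 lower) and 5 the fold rule (2 higher, 3 lower). Each is 6.67%, beside 4.55% and 5.04% of all genes.

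**Figure D5:**
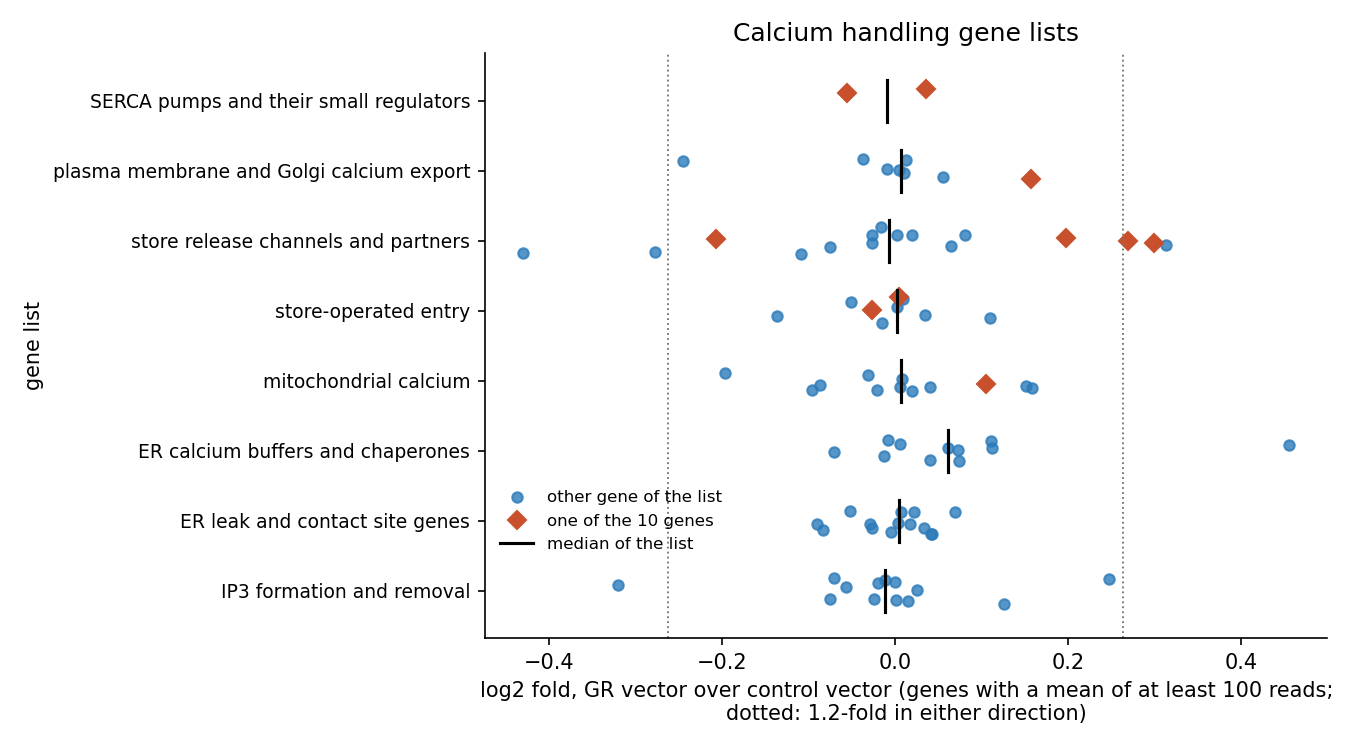
Log2 fold (GR library over control library) for each well-read gene in 8 calcium handling lists, with the 10 genes as orange diamonds, other genes as blue circles, list medians as black bars and dotted lines at 1.2-fold in either direction. The medians lie between -0.01 and 0.06, and the spread is widest among release channels and their partners.

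The authors' deposited enrichment report, which is titled for the GR library, lists a calcium signalling pathway set of 183 genes with a normalized score of 1.01 and a false discovery q of 0.936. It ranked 86th of 307 sets by that score, next to insulin secretion at 85th, and 0 sets in the deposited report had a q under 0.25. The members of these sets were not analysed here.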

How the data were processed

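Messenger RNA of 2 MIN6 libraries, 1 per vector, was compared. The authors deposited a scaled signal per gene, a log2 fold change, a p-value and an adjusted p-value, and a gene set report with enrichment scores. The submitters' processing notes name DESeq2 1.10.1, and aligner, counter and genome build were not given in the sources used here. The deposited signal divided by the smallest unit of its library gave whole reads (100% of values to within 0.01). The deposited p-values matched an exact test of edgeR 4.0.16 with a preset dispersion of 0.04 to within 4.45e-08, so their spread was not measured between replicates.

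Folds used library sizes scaled by TMM and exact 95% Clopper-Pearson intervals of the read ratio. RPKM used GENCODE M21 (GRCm38) exon unions, and all 10 genes had the coordinates of the deposited table. The library test (scipy 1.17.1) was tested on data simulated with counting error alone. That check cannot show how the test behaves with any other spread between libraries. GC and length trends were removed by lowess (statsmodels 0.14.6, span 0.3) over genes with 100 reads or more on average. Alternatives were other scalings (DESeq2 1.42.0 size factors among them), limits, lengths and dispersions. The design fixed for named genes all 10 members, their paralogs, and from each of 8 lists the 2 most read genes and up to 2 with the largest change past the library test. Of 121 list genes, 109 were analysed. The members, lists and pairs were chosen with earlier results of these data known.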

Additional observations from a re-analysis of the deposited data

How the results depend on the processing

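No paired analysis was possible because each group has 1 library. Of the 10 folds, Atp2a3 left its counting interval with the GC trend removed (0.995), and no other did under the 5 alternatives (total reads, DESeq2 size factors, 1 added read, GC trend, length trend). The count past the fold rule, 2 higher and 0 lower, was 4 and 1 at a limit of 1.1 and 0 and 0 at 1.5. It was also 0 and 0 with the length trend removed, where Ryr2 and Itpr2 both lay at 1.17. The library test called 3 higher and 1 lower, and 2 and 1 with total reads or DESeq2 size factors, which lost Atp2a2. With edgeR's exact test at a preset dispersion of 0.01 or 0.04 it was 0 and 0. These dispersions were assumed, and at 0.04 the deposited test did not call Nr3c1 either. With the GC trend removed the library test called 2 and 0 (Atp2b1 and Itpr1), and 1.65% of all well-read genes passed. These counts with a trend removed, other than the fold rule with the GC trend, were chosen after the data were seen. Shares of the leading paralog in the control library moved with the length used. With the longest transcript they were 59.8% for Atp2a3, 67.7% for Atp2b1, 68.4% for Itpr1, 72.4% for Stim1, 48.9% for Orai3 and 98.3% for Mcu. By reads with no length correction they were 54.7%, 62.0%, 69.2%, 69.9%, 38.0% and 99.2%, and Orai2 then led its family with 51.2%. Depth limits Ryr2, Itpr2 and Orai1, whose intervals allow differences of about 1.2-fold or more.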
